A study of Mus musculus with 12 samples.

Results

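The 7 genes Neurog1, Neurog2, Neurod1, Neurod4, Atoh1, Nhlh1 and Nhlh2 encode proneural and neuronal differentiation factors of the basic helix-loop-helix (bHLH) class. They were followed through the closing mouse neural tube on Affymetrix Mouse Genome 430 2.0 arrays. The genes were chosen by name as members of this class, with earlier results of these data known. Every probe set assigned to just 1 of them was used. This gave 11 probe sets for 7 genes, out of 34945 single-gene probe sets for 18193 genes. Neural tubes were dissected from embryos of ICR (CD-1) mice, an outbred stock, at gestation day (GD) 8.5, 9.0 or 9.5, the morning of the vaginal plug counting as day 0. The labels name no mutation, transgene or treatment, so stage is the factor that distinguishes the groups. The labels name 4 biological replicates for each stage and do not say whether a replicate pooled several embryos or litters. Of the 12 arrays, 10 were deposited on a log2 scale, with 2 arrays at GD8.5 (replicates 3 and 4), 4 at GD9.0 and 4 at GD9.5. The other 2, GD8.5 replicates 1 and 2, were deposited as linear intensities and are described separately.

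Proneural bHLH proteins pair with widely expressed E proteins, bind the E-box, a short DNA motif, and start a dividing neural progenitor on the path to becoming a neuron. Neurog1, Neurog2 and Atoh1 act early in this sequence as determination factors, while Neurod1, Neurod4, Nhlh1 and Nhlh2 follow in cells that are leaving the cell cycle. Id, Hes and Hey proteins oppose them, and the Notch ligands that they switch on restrain neighbouring cells.

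Because these factors bind E-boxes, also at genes of their own class, the 250 bases upstream of each start site were read from the RefSeq promoter table (mouse build GRCm38.p6) and searched on both strands for CANNTG, where N is any base. All 7 genes were found in the table, with 1 window each apart from Neurod4, which had 2 overlapping ones. The windows that hold an E-box are shown for the part outside the gene's own annotated span, 5′ to 3′ on the gene's strand, with the E-box in capitals.
Neurod1, chr2:79456637-79456886, minus strand: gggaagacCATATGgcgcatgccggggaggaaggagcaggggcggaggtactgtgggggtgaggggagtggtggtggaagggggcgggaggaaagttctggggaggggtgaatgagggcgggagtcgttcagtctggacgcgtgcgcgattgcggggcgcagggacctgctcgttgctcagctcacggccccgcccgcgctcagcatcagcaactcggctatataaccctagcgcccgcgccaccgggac
Nhlh1, chr1:172057597-172057846, minus strand: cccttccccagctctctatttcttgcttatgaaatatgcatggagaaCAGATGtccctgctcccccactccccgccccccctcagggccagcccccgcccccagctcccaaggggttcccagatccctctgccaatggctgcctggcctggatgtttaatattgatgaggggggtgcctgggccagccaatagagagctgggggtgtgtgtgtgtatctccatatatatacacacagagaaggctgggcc
Nhlh2, chr3:102009895-102010110, plus strand: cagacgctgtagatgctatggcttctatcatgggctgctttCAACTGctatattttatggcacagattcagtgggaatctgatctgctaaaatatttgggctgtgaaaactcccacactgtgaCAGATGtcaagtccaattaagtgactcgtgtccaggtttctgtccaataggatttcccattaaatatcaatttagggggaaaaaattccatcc
The Neurod1 window held CATATG at position -242 from the start site. Nhlh1 held CAGATG at position -203, and Nhlh2 held CAACTG at position -209 and CAGATG at position -127. The windows of Neurog1, Neurog2, Neurod4 and Atoh1 did not contain these letters. The Neurog2 window lies wholly within the annotated span of Neurog2 itself, which begins upstream of the start site used. By comparison, 66.2% of all 32851 windows of 250 bases in the table held at least 1 CANNTG, with a median of 1, and 14.4% held CAGATG or its other-strand form CATCTG. The form CAGCTG, held by 4271 of the 32851 windows, and CAGGTG or CACCTG, held by 17.2%, were in none of the members' windows. The N-box CACNAG, a motif bound by Hes proteins, was found on either strand in both Neurod4 windows and in that of Nhlh2, against 36.7% of all windows. A match describes these letters and does not show that a protein binds there.

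All levels below are normalized log2 signals from the 10 log2 arrays, on which the median over all probe sets lay between 1.75 and 1.82. Signals of different probes are not compared with each other, because probes bind with different strength. A level of 1.42, the 95th percentile of 39 olfactory receptor genes, served as background, and a fold against a stage mean at or under it is given as a lower bound. Changes were tested with limma across all 18193 genes, each represented by its brightest probe set, with Benjamini-Hochberg adjustment, and a gene is said to rise or fall where the adjusted p was under 0.05. The number of arrays, 2 at GD8.5, limits the precision. One alternative scale, called centring on pan-neural genes, subtracts from each array its mean over 12 progenitor genes of neural tissue. It moves the median change of all genes to -0.36 between GD8.5 and GD9.0, -0.75 between GD9.0 and GD9.5 and -1.12 over the day, so that most genes appear to fall. Another alternative takes log2 of the 2 linear GD8.5 arrays and normalizes all 12 together. Those 2 arrays agreed poorly with each other and enter the shared estimate of spread. A call between GD9.0 and GD9.5 can therefore be lost there, although neither array belongs to those stages. In whole neural tube, more expressing cells and more RNA per cell cannot be told apart.

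Of the determination factors, Neurog1 and Neurog2 made most of their rise between GD8.5 and GD9.0, while Atoh1 passed the test in the later interval only. Neurog1 (GRCm38.p6 chr13:56250478-56252180), which specifies sensory and other early neurons, measured 1.85 and 2.19 on the 2 GD8.5 arrays. It measured 4.51, 4.50, 4.54 and 4.37 on the 4 GD9.0 arrays. At GD9.5 it measured 4.85, 5.10, 4.88 and 5.09. Every GD9.0 array lay above both GD8.5 arrays, and every GD9.5 array lay above all 4 at GD9.0. The first interval brought a change of 2.46 ± 0.11 on the log2 scale (SE; 5.52-fold, adjusted p = 4.46e-08), which ranked 4 among the measured rises of all genes. The second interval added 0.50 ± 0.09 (1.41-fold, adjusted p = 0.00156), a rise that becomes a fall of 0.25 (adjusted p = 0.0287) with centring on pan-neural genes. After log2 and quantile normalization of all 12 arrays this second change was 0.43 with a larger SE of 0.28 and did not pass the test (adjusted p = 0.433).

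**Figure D1:**
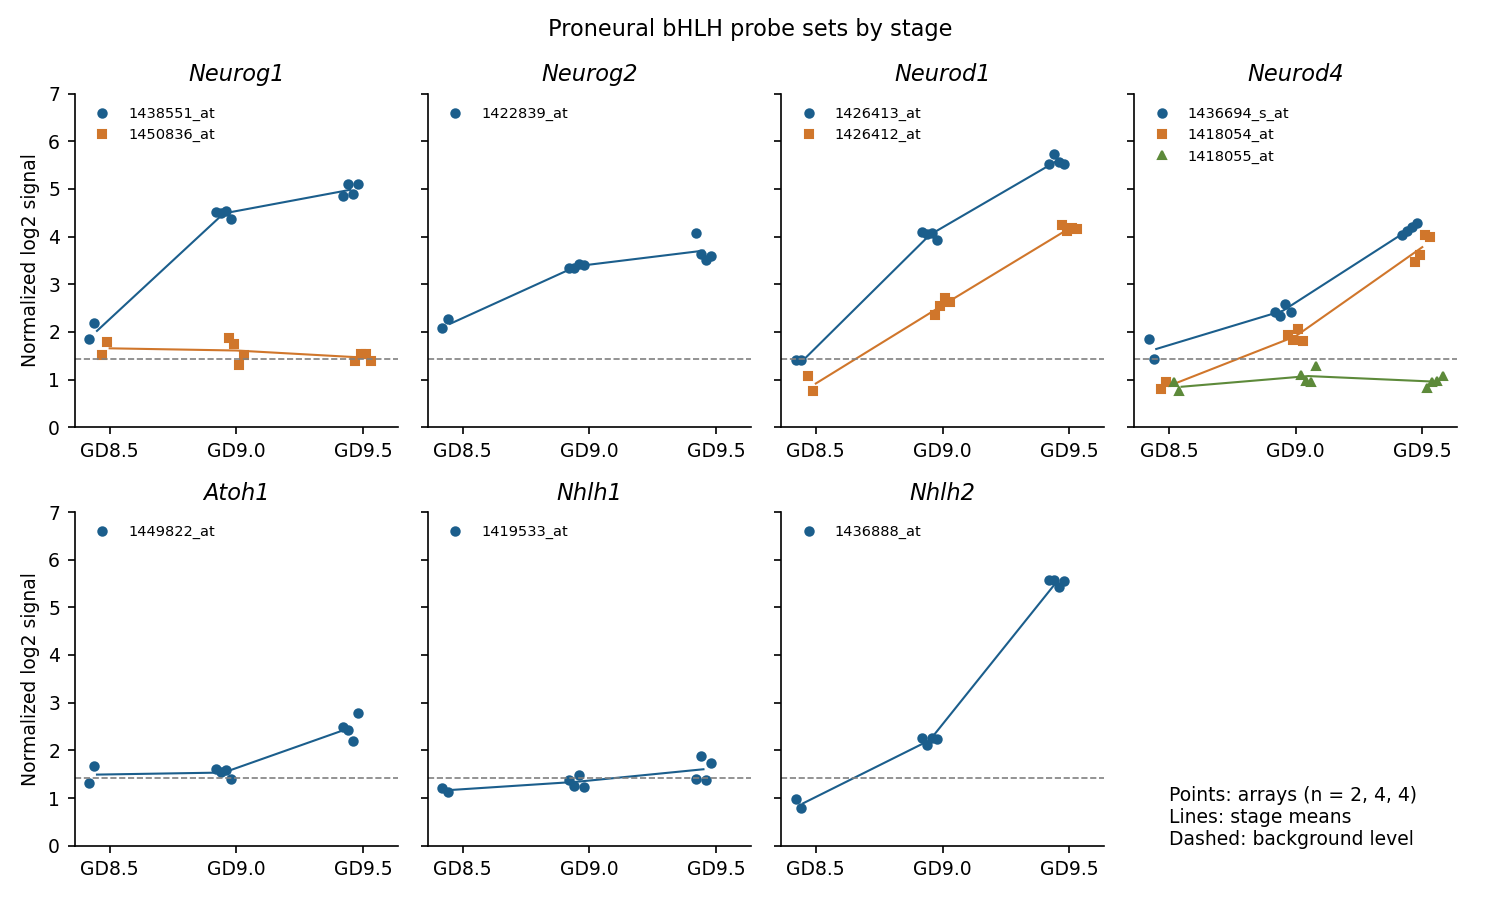
Normalized log2 signal (vertical axis) of all 11 probe sets of the 7 genes on each of the 10 log2 arrays, by stage; points are arrays, lines join stage means and the dashed line is the background level of 1.42. Nhlh2 climbs from under background at GD8.5 to between 5.43 and 5.58 at GD9.5, Neurog1 makes most of its change by GD9.0, and probe set 1450836_at of Neurog1 and 1418055_at of Neurod4 stay flat.

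Neurog2 (chr3:127632733-127635636), a determination factor of motor and other ventral neurons, also made most of its rise by GD9.0, over a smaller range. Its signal was 2.07 and 2.26 at GD8.5, and 3.34, 3.34, 3.43 and 3.39 at GD9.0. At GD9.5 it was 4.06, 3.64, 3.51 and 3.60. The arrays of successive stages did not overlap, and GD9.5 replicate 1 stood above the other 3 of its stage. The first interval gave a log2 change of 1.21 ± 0.13 (2.31-fold, adjusted p = 8.75e-05). The second gave 0.33 ± 0.11 (1.25-fold, adjusted p = 0.0448), but this call was marginal. It was lost in the fit over all probe sets (adjusted p = 0.0555) and when any 1 of 8 of the 10 arrays was left out (adjusted p up to 0.0968). The change was 0.21 without GD9.5 replicate 1 and became -0.42 with centring on pan-neural genes. After log2 and quantile normalization of all 12 arrays it was 0.27 with a larger SE of 0.23 (adjusted p = 0.603).

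Atoh1 (chr6:64729125-64731245), the determination factor of dorsal interneurons and of cerebellar and hair cell lineages, stayed near background over the first interval. It measured 1.30 and 1.68 at GD8.5, and 1.60, 1.55, 1.58 and 1.41 at GD9.0. It then reached 2.49, 2.43, 2.20 and 2.77 at GD9.5. The GD8.5 and GD9.0 arrays overlapped, with a change of 0.04 ± 0.14 (adjusted p = 0.897), whereas all 4 GD9.5 arrays lay above every earlier array. The second interval brought 0.94 ± 0.12 (1.92-fold, adjusted p = 1.57e-04). With centring on pan-neural genes, that change was 0.20 and did not pass the test (adjusted p = 0.129). After log2 and quantile normalization of all 12 arrays it was 0.99 with a larger SE of 0.35 and did not pass either (adjusted p = 0.0973).

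The differentiation factors Neurod1 and Neurod4 rose in both intervals. Neurod1 (chr2:79452637-79456636), which drives neuronal differentiation downstream of the neurogenins, had the same value of 1.40 on both GD8.5 arrays, at background. It measured 4.09, 4.06, 4.06 and 3.92 at GD9.0. At GD9.5 it stood at 5.52, 5.72, 5.57 and 5.52. The stages did not overlap and lay far apart relative to the spread within each. Neurod1 gained at least 6.10-fold in the first interval (measured log2 difference 2.63 ± 0.08, adjusted p = 2.07e-09) and 1.55 ± 0.06 in the second (2.92-fold, adjusted p = 4.15e-08). Equal values on these 2 arrays were found for 208 of 45101 probe sets, at a median level of 1.48.

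Neurod4 (chr10:130268152-130280254), a relative of Neurod1 that acts in committed neuronal precursors, measured 1.85 and 1.43 at GD8.5. Its GD9.0 arrays gave 2.42, 2.34, 2.59 and 2.42. The GD9.5 arrays gave 4.03, 4.11, 4.19 and 4.28. The 3 stages were again separate, although the 2 GD8.5 arrays differed by more than those of either later stage. The first interval added 0.80 ± 0.12 (1.75-fold, adjusted p = 7.53e-04) and the second 1.71 ± 0.10 (3.27-fold, adjusted p = 4.05e-07).

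The late pair Nhlh1 and Nhlh2, which are expressed in newly born neurons, differed on these arrays. Nhlh2 (chr3:102010111-102015492) measured 0.98 and 0.80 at GD8.5, under background. It reached 2.26, 2.11, 2.25 and 2.24 at GD9.0. By GD9.5 it was at 5.58, 5.57, 5.43 and 5.55. No stages overlapped. The change of 3.32 ± 0.06 from GD9.0 to GD9.5 (9.96-fold, adjusted p = 1.03e-10) ranked 2 of all measured rises in that interval. The first interval had brought a rise of at least 1.73-fold (measured log2 difference 1.33 ± 0.08, adjusted p = 4.88e-07). Over the whole day the rise was at least 17.2-fold (adjusted p = 1.21e-11).

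Nhlh1 (chr1:172052292-172057596) was barely above background. It measured 1.21 and 1.12 at GD8.5, and 1.39, 1.25, 1.49 and 1.23 at GD9.0. At GD9.5 it measured 1.41, 1.88, 1.39 and 1.74. Only GD9.0 replicate 3 among the arrays of the first 2 stages exceeded the background level, and the GD9.0 and GD9.5 arrays overlapped. Neither interval passed the test (0.17 ± 0.14, adjusted p = 0.497; 0.26 ± 0.11, adjusted p = 0.117). The change over the day was 0.44 ± 0.14 (at least 1.13-fold, adjusted p = 0.033). That call was lost without either GD8.5 array, without GD9.5 replicate 2 and without GD9.5 replicate 4 (adjusted p from 0.0582 to 0.182), and with the replicate number as a block (adjusted p = 0.103), and the direction turned (-0.67) with centring on pan-neural genes.

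Because the 7 genes were chosen with earlier results of these data known, the counts below describe them and do not test the class. Counted by gene, 5 of 7 rose and none fell between GD8.5 and GD9.0, where 6.78% of all genes rose and 6.74% fell. The median log2 change of the 7 was 1.21, against -0.002 over all genes. Between GD9.0 and GD9.5, 6 of 7 rose and none fell, against 14.1% and 10.3% of all genes, and the medians were 0.94 and -0.008. That count dropped to 3 rises, with 3 falls (Neurog1, Neurog2 and Nhlh1), with centring on pan-neural genes. Over the whole day all 7 rose, against 15.5% of all genes, and with centring on pan-neural genes Atoh1 (-0.12) and Nhlh1 (-0.67) turned negative. The arrays of the later stage lay wholly above those of the earlier stage for 6 of 7 genes in the first interval (all but Atoh1), against 17.6% of all genes, and for 6 of 7 in the second (all but Nhlh1), against 15.1%.

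The 7 genes split by the interval in which they changed more, tested as the second change minus the first. Neurog1 (-1.97 ± 0.16, adjusted p = 2.43e-05), Neurod1 (-1.08 ± 0.12, adjusted p = 1.75e-04) and Neurog2 (-0.88 ± 0.20, adjusted p = 0.0155) changed more before GD9.0. Nhlh2 (1.99 ± 0.12, adjusted p = 2.16e-06), Neurod4 (0.91 ± 0.18, adjusted p = 0.00768) and Atoh1 (0.89 ± 0.22, adjusted p = 0.0232) changed more after it. Nhlh1 showed no difference that passed the test (0.09 ± 0.21, adjusted p = 0.848). So 3 of 7 were higher and 3 of 7 lower in this contrast, against 6.97% and 4.67% of all genes. The first interval held 83.2% of the day's log2 change for Neurog1, 78.7% for Neurog2 and 63.0% for Neurod1. It held 32.0% for Neurod4, 28.6% for Nhlh2 and 4.5% for Atoh1. Since Nhlh2 and Neurod1 were at or under background at GD8.5, their first change is a lower bound and so the gap between their intervals is not fixed by these values. Without GD8.5 replicate 3, which leaves 1 array at that stage, the Neurog2 difference shrank to -0.785. Without GD8.5 replicate 4 that of Atoh1 shrank to 0.708. Only the size is given for these fits, and neither is to be read as keeping the call. With both GD8.5 arrays kept, the Atoh1 call was lost without GD9.0 replicate 2 (adjusted p = 0.0528) or GD9.0 replicate 4 (adjusted p = 0.0682). It was also lost with centring on pan-neural genes (adjusted p = 0.0729). After log2 and quantile normalization of all 12 arrays, Neurog2 (adjusted p = 0.074), Neurod4 (0.47, adjusted p = 0.634) and Atoh1 (adjusted p = 0.466) did not pass.

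**Figure D2:**
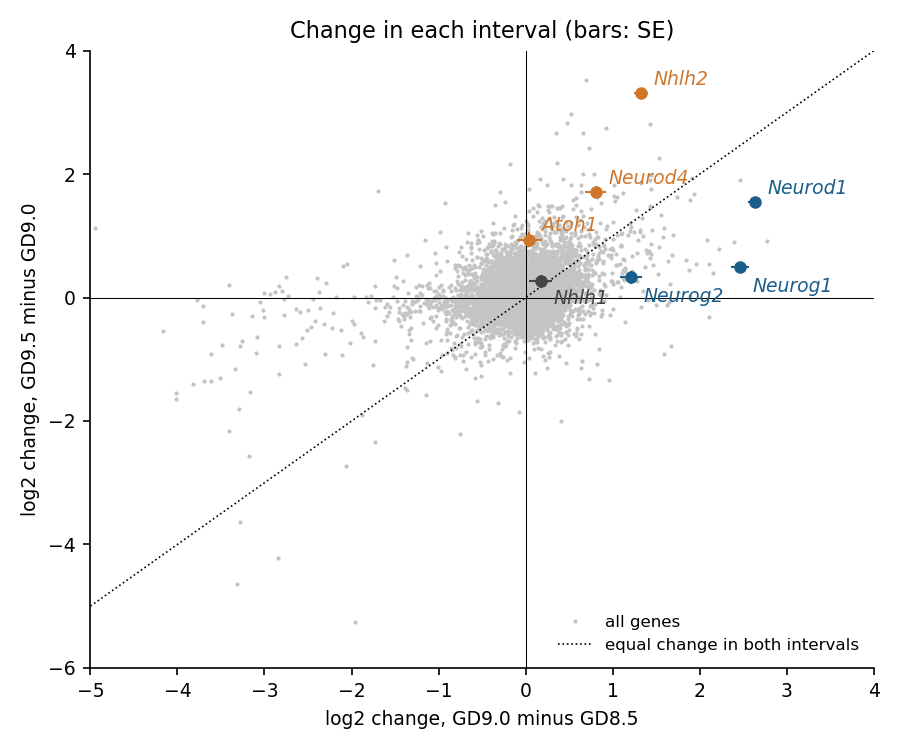
Log2 change from GD8.5 to GD9.0 (horizontal axis) and from GD9.0 to GD9.5 (vertical axis) for all 18193 genes in grey and the 7 members in colour with SE bars; the dotted line marks equal change. Neurog1, Neurog2 and Neurod1 (blue) lie under the line and Nhlh2, Neurod4 and Atoh1 (orange) above it, on the deposited scale; with centring on pan-neural genes the second-interval changes of Neurog1, Neurog2 and Nhlh1 turn negative.

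Where a gene had several probe sets, they did not always move together. The second Neurog1 probe set, 1450836_at, stayed between 1.31 and 1.87 on all 10 arrays and passed the test in neither interval (-0.05, adjusted p = 0.913; -0.15, adjusted p = 0.453). The rise of Neurog1 therefore rests on 1438551_at alone. The mean of both probe sets no longer passed in the second interval (0.17, adjusted p = 0.167). For Neurod1, the dimmer probe set 1426412_at measured 1.06 and 0.77 at GD8.5, 2.35, 2.54, 2.71 and 2.62 at GD9.0, and 4.24, 4.11, 4.17 and 4.15 at GD9.5. It rose by about the same amount in each interval (1.64 ± 0.11 and 1.61 ± 0.09), so that the difference between the intervals was -0.03 (adjusted p = 0.954) where the brighter probe set gave -1.08. Its GD8.5 level, too, was under background.

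For Neurod4, 1418054_at followed the brightest probe set 1436694_s_at. Its stage means were 0.87 ± 0.11 (SD, n = 2), 1.91 ± 0.11 and 3.78 ± 0.27 (n = 4 each), with measured differences of 1.04 ± 0.15, from a level under background, and then 1.87 ± 0.12. The third, 1418055_at, stayed under background on every array, between 0.76 and 1.29. The mean of the 3 Neurod4 probe sets changed more in the second interval by 0.47, which did not pass the test (adjusted p = 0.0618). Over all 11 member probe sets, 7 rose in the first interval, against 4.28% of all 45037 probe sets tested, and 7 in the second, against 8.93%. No member probe set fell in either.

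The genes with the most similar course over the 10 arrays were found by the root mean square difference of log2 values centred on each gene's mean, among 13018 genes above background. Nearest to Neurog1 were Col3a1 (0.18), a fibrillar collagen, Rspo1 (0.19), a Wnt agonist, and Wnt8b (0.20), a Wnt ligand. Nearest to Neurog2 were Flrt2, Acsl6 and Slc7a1 (0.15 to 0.16). Neurod1 was closest to Pou3f3 (0.20), a neural POU factor, then Fabp7 (0.27), a lipid-binding protein of radial glia, and Cnpy1 (0.31). Neurod4 was closest to Rspo3 and Tagln3 (0.12 each) and Vcam1 (0.15), and Tagln3 is itself a gene of young neurons. Atoh1 was closest to Ccnj (0.12), Lhx9 (0.13), a homeobox gene of dorsal interneurons, and Srebf2 (0.14). Nhlh1, which hardly moved, was closest to Dcakd, Tubgcp6 and Usp37 (0.07 to 0.10). The genes nearest to Nhlh2 were the transcript C130071C03Rik (0.24), the ephrin receptor gene Epha3 (0.30) and Ckb (0.39), the brain creatine kinase. These distances describe a course over 3 stages and were not tested.

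The partners and opponents of the 7 factors were then read from fixed lists. Of the 3 E proteins, the dimerization partners, Tcf4 rose in both intervals (0.43 ± 0.06, then 0.22 ± 0.05), Tcf12 in the first (0.26 ± 0.06) and Tcf3 in the second (0.25 ± 0.05), but none of these rises was kept with centring on pan-neural genes, where the first change of Tcf4 was 0.07 (adjusted p = 0.314) and the others turned negative. With all 12 arrays neither rise of Tcf4 passed (adjusted p = 0.179 and 0.204), nor did that of Tcf12 (adjusted p = 0.188). Tcf3 had changed by -0.13 in the first interval (adjusted p = 0.213) and Tcf12 by 0.10 in the second (adjusted p = 0.146). The stage means were 6.32, 6.75 and 6.97 for Tcf4, 8.87, 9.13 and 9.23 for Tcf12, and 7.04, 6.91 and 7.16 for Tcf3, so the partner transcripts were well above background at each stage. The median changes of the 3 were 0.26 and 0.22. The first rise of Tcf12 did not pass with the replicate number as a block (adjusted p = 0.0556) or without probe sets shared between transcripts (adjusted p = 0.503), and the rise of Tcf3, seen in 1 of its 3 probe sets, did not pass for their mean (adjusted p = 0.0915).

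Among the 10 Id, Hes and Hey antagonists, 3 rose and 1 fell in the first interval, against 6.78% and 6.74% of all genes. In the second, 2 rose and 3 fell, against 14.1% and 10.3%. Medians were 0.04 and -0.09. With centring on pan-neural genes 1 rose and 6 fell, then 2 rose and 8 fell, and the first rises of Id4 (0.16, adjusted p = 0.145) and Hey1 (0.17, adjusted p = 0.105) did not pass. Hes5, the main Notch effector of neural progenitors, rose in both intervals (1.21 ± 0.07, then 1.14 ± 0.06), from a mean of 3.76 to 6.11. Id4, a dimerization inhibitor, rose little at first (0.53 ± 0.10, in 1 of its 3 probe sets) and then by 2.97 ± 0.08 (7.83-fold), to 8.31 at GD9.5. Hey1 rose in the first interval (0.54 ± 0.08) and Hey2 fell (-0.63 ± 0.09). Id1 (-0.64 ± 0.06) and Hes1 (-0.35 ± 0.06) were the largest falls in the second.

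The list of genes that act with or downstream of proneural factors moved mostly upward. Of its 18 genes, 9 rose and 1 fell in the first interval, against 6.78% and 6.74% of all genes. In the second, 15 rose and none fell, against 14.1% and 10.3%. Medians were 0.39 and 0.77, and with centring on pan-neural genes the counts became 4 rises and 5 falls, then 7 rises and 6 falls. Insm1, a zinc-finger factor of neuronal progenitors, rose from 1.83 to 3.26 and 5.15 (1.43 ± 0.10, then 1.90 ± 0.08). Ebf3, a factor of early neuronal differentiation, rose by 1.20 ± 0.16 and 1.22 ± 0.13. Mfng, a modifier of Notch receptors, rose by 0.90 ± 0.12 in the first interval, and Btg2, an antiproliferative gene of neurogenic divisions, by 1.57 ± 0.09 in the second. Cdkn1c, a cell cycle inhibitor, fell by 0.99 before GD9.0 and rose by 1.06 ± 0.06 after it.

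Of 18 structural genes of neurons, 8 rose and 1 fell in the first interval, and 15 rose and none fell in the second (medians 0.30 and 0.93). The share of all genes that rose was itself larger in the second interval (14.1% against 6.78%), and the difference between intervals was not tested for the list. With centring on pan-neural genes 5 rose and 7 fell, then 9 rose and 7 fell. In the first interval the largest rises were those of Elavl4, an RNA-binding protein of neurons (1.74 ± 0.12), Map2, a dendritic microtubule protein (1.34 ± 0.07, in 1 of its 4 probe sets), and Gap43, a growth cone protein (0.67 ± 0.08). Stmn2 fell by 0.36. In the second interval the neurofilament genes Nefm (2.67 ± 0.08) and Nefl (2.17 ± 0.07) and the microtubule gene Dcx (2.66 ± 0.11) rose most. Dcx came from under background at GD9.0, giving at least 5.86-fold.

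**Figure D3:**
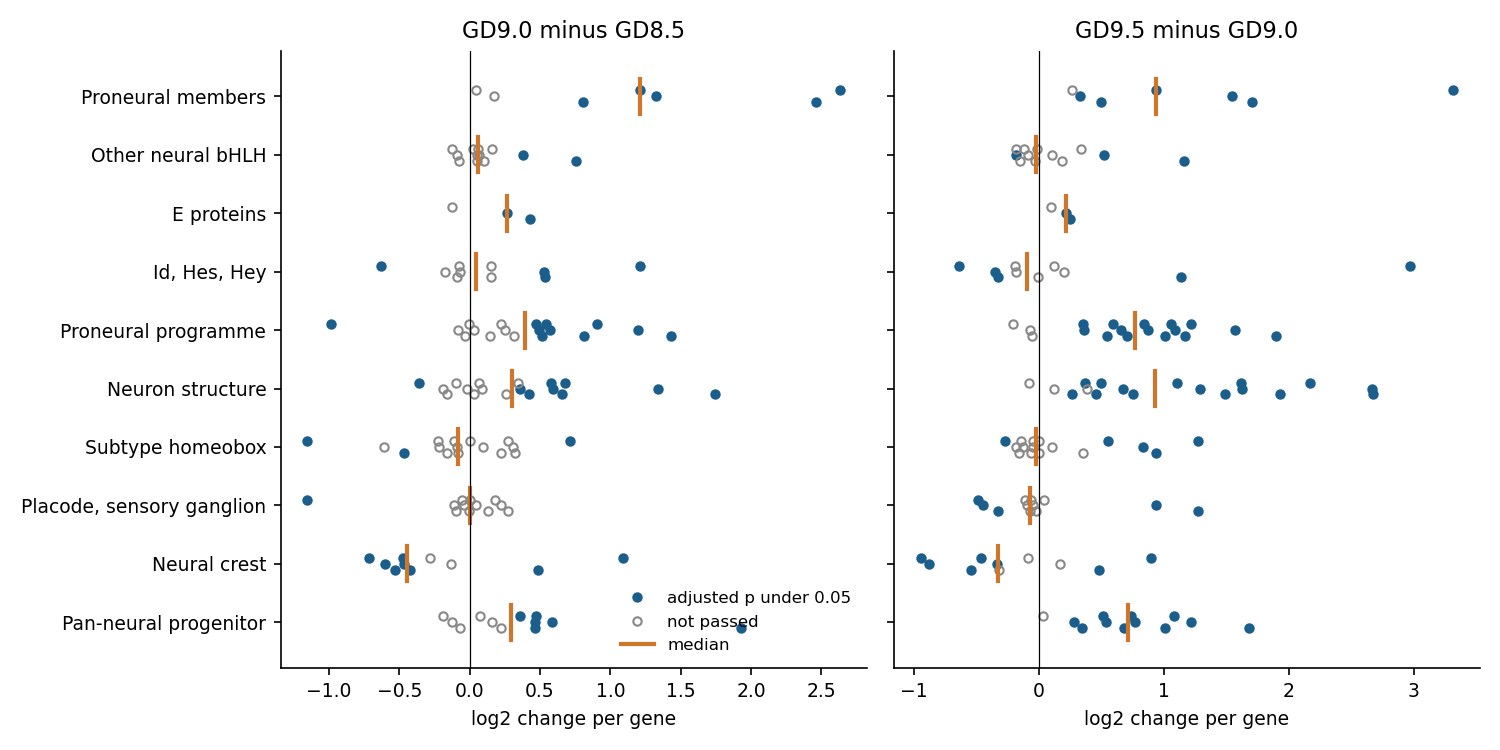
Log2 change per gene (horizontal axis) in the first interval (left) and the second (right) for the 7 members and 9 other lists; filled points passed the limma test at adjusted p under 0.05, open points did not, and bars are medians. The members' medians of 1.21 and 0.94 stand beside 0.39 and 0.77 for the proneural programme and values near 0 for other neural bHLH genes, on the deposited scale; with centring on pan-neural genes the members' medians become 0.85 and 0.20.

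Other neural bHLH genes were also read. Of 12 measured, 2 rose in the first interval (Olig2, 0.76 ± 0.18, and Tal2, 0.38 ± 0.07), where 6.78% of all genes rose. In the second, where 14.1% did, 2 rose (Olig3, 1.16 ± 0.10, and Olig2, 0.52 ± 0.15). Tal2 fell then (-0.18 ± 0.06, in 1 of its 2 probe sets). That fall did not pass with median centring of the arrays (adjusted p = 0.0983) or with all 12 arrays (adjusted p = 0.104). The second rise of Olig2 did not pass with all 12 arrays either (adjusted p = 0.0521). With centring on pan-neural genes there were no rises and 8 falls in the first interval (Olig2 0.39, adjusted p = 0.063; Tal2 0.02, adjusted p = 0.826), then 1 rise and 10 falls, with Olig2 at -0.22. Olig3 marks dorsal progenitors, and like Atoh1 it did not pass the test before GD9.0 (0.02, adjusted p = 0.933). Neurog3, Neurod6, Ptf1a, Bhlhe23 and Ferd3l were under background at every stage. Bhlhe22 was not analysed here.

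Of 16 homeobox genes of neuron subtypes, 1 rose and 2 fell in the first interval, against 6.78% and 6.74% of all genes, and 4 rose and 1 fell in the second, against 14.1% and 10.3% (medians -0.09 and -0.02). With centring on pan-neural genes 1 rose and 10 fell, then 2 rose and 13 fell. Lhx2 rose in the first interval (0.71 ± 0.07), while Isl1 (-1.15 ± 0.07) and Mnx1 (-0.47 ± 0.08, to a level under background) fell. In the second, Pou4f1 (1.27 ± 0.09), Isl1 (0.94 ± 0.06) and Lhx9 (0.83 ± 0.09) rose most, and En1 fell by 0.27 to a level at background, a call lost under 6 of the alternatives (adjusted p from 0.0515 to 0.546). Isl1 and Pou4f1 also stand on the sensory ganglion list, and Isl1 is expressed outside the neural tube as well, including in heart precursors.

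Neurog1 and Neurod1 are also active in cranial placodes and sensory ganglia, so markers of those cells were read beside the members. Of 12 measured, none rose and 1 fell in the first interval (Isl1), against 6.78% and 6.74% of all genes. In the second, 2 rose (Pou4f1 and Isl1) and 3 fell, led by Six4 (-0.49 ± 0.08) and Eya1 (-0.45 ± 0.06), against 14.1% and 10.3%. With centring on pan-neural genes none rose and 9 fell, then 2 rose and 10 fell. Their mean level per array changed little, at 2.68 to 2.72, 2.59 to 2.70 and 2.64 to 2.76 at the 3 stages. Several of the genes lay near background at every stage, so this mean could move little. It also averages over opposite changes, such as the rise of Isl1 and the fall of Six4 in the second interval. Of 16 genes listed, 12 were measured. Drgx was not analysed here. Neural crest markers, 10 measured, fell more often than they rose (6 against 2, then 5 against 2), from 4.26 to 4.28 down to 3.84 to 3.88. Of all genes, 6.74% fell and 6.78% rose, then 10.3% fell and 14.1% rose. With centring on pan-neural genes 8 of the crest markers fell and 1 rose, then 9 fell and 1 rose.

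Markers of other tissues changed strongly over the same intervals in which the members rose. Heart muscle genes fell in the first interval for 16 of 18 and in the second for 12, where 6.74% and 10.3% of all genes fell. Genes of endoderm or yolk sac fell for 16 of 17 and then 14. Their mean level per array was 4.59 to 4.67, 2.57 to 2.63 and 1.43 to 1.52 at the 3 stages for heart muscle, and 5.69 to 5.72, 3.22 to 3.30 and 1.80 to 1.86 for endoderm and yolk sac. Of 11 erythroid genes, 6 rose in the first interval and 7 in the second, against 6.78% and 14.1% of all genes. With centring on pan-neural genes 6 rose and 4 fell, then 1 rose and 6 fell. The erythroid level was 4.10 to 4.26, 4.89 to 4.96 and 5.41 to 5.47. The part of these shifts in the members' changes was not tested.

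Pan-neural progenitor genes, which mark neural tissue itself, rose as well, 6 of 12 and then 11 of 12, against 6.78% and 14.1% of all genes. Their mean level per array went from between 6.05 and 6.08 to between 6.39 and 6.47 and then 7.11 and 7.20. In the first interval 6 of them did not pass the test, and the list median was 0.29. Fabp7, also a gene of radial glia, rose by 1.93 ± 0.06 there. It therefore weighs heavily on the mean that the centring subtracts. With the arrays centred on these genes, 5 of 7 members still rose in the first interval, led by Neurod1 and Neurog1. In the second interval Nhlh2 (2.57), Neurod4 (0.97) and Neurod1 (0.81) still rose. RNA quality probes moved with stage too. The 18S control averaged 9.82, 8.81 and 10.3 at the 3 stages, and the actin control's 3′ minus 5′ difference 0.71, 0.56 and 0.93, and their part in the members' changes was not tested.

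**Figure D4:**
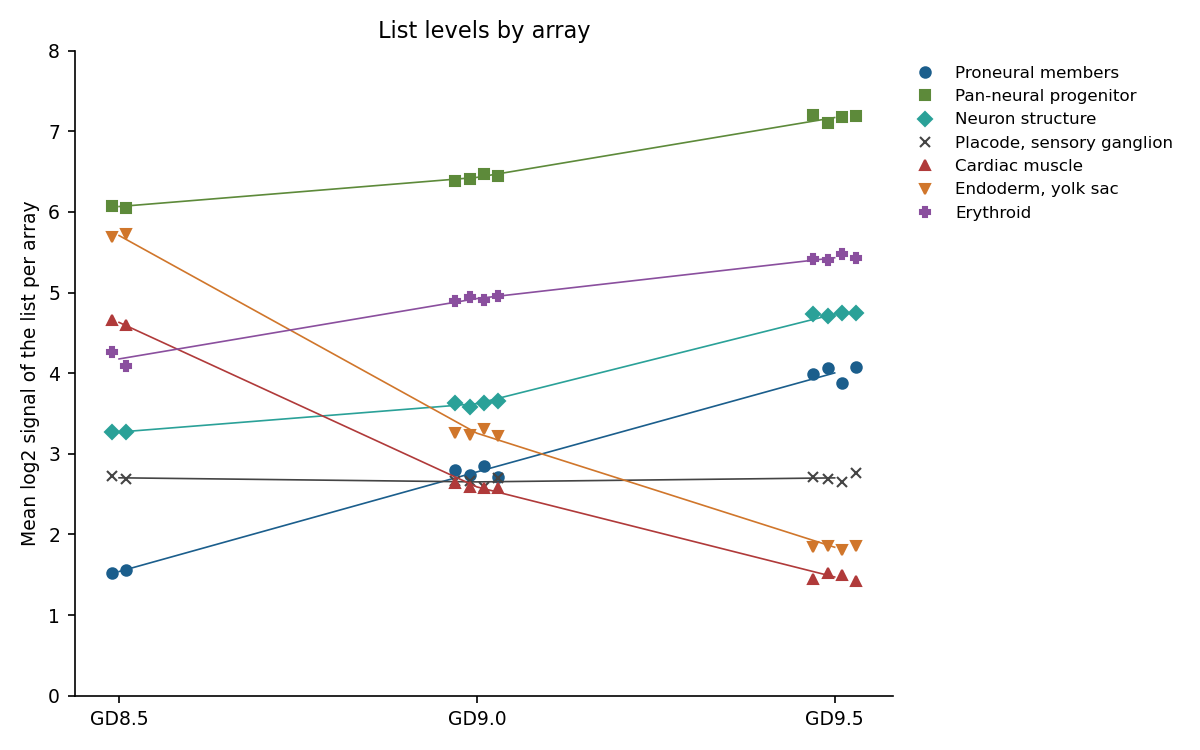
Mean log2 signal of each marker list on every array (vertical axis), by stage, with lines joining stage means. The members rise from a mean of 1.54 to 4.00 while cardiac and endoderm lists fall, pan-neural and neuron structure lists rise, and the placode and sensory ganglion list stays between 2.59 and 2.76.

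The 2 linear GD8.5 arrays could be read only by rank. The 11 member probe sets lay between the 4.4 and 60.9 percentiles of their arrays. They agreed poorly, with intensities that differed between the 2 arrays by 1.06-fold to 50.5-fold (median 2.8-fold), the largest gap being Atoh1 at 3.13 and 158. On the log2 GD8.5 arrays no member differed by more than 0.42 on the log2 scale. At GD9.5 the Nhlh2 probe set stood at the 82.9 to 84.1 percentiles, above both linear arrays (40.4 and 7.0). Atoh1 stood at the 58.1 to 63.8 percentiles, a range that includes 1 of the linear GD8.5 arrays (60.9).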

How the data were processed

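Total RNA from micro-dissected neural tubes was hybridised to Affymetrix arrays, per the labels' protocols. The authors deposited 1 normalized value per probe set and array: log2 values for 10 arrays and linear intensities for 2. Expression Console 1.2.1 (Affymetrix), RMA and GCRMA are listed per the submitters' processing notes, and the sources used here do not tie a method to a column. Probe sets were named from GEO's platform annotation (34945 with 1 gene, 932 with several, 9160 with none; 64 control probe sets left out), and 161 of 18193 genes did not match the reference gene table.

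The 10 log2 arrays were fitted with limma 3.58.1 (R 4.3.3), stage means in 1 fit (residual df 7), Benjamini-Hochberg adjusted over 18193 genes or 45037 probe sets, after a check on simulated data. Probe sets of a gene were represented by the brightest. Alternatives covered normalization, probe set choice, filter, spread model, array weights, replicate block, all 12 arrays and leaving out each array. The text names all members and E proteins, at most the 3 largest rises and 2 largest falls called per list and interval, and the 3 nearest genes per member. Members and lists were chosen with earlier results of these data known. The p-values set each difference between stages against the spread between samples of a stage. The labels do not tie replicates to litters, so it is unknown whether that spread includes variation between litters.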

Additional observations from a re-analysis of the deposited data

Results flagged for a closer look

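At GD9.0, replicate 2 gave the lowest Nhlh2 signal, 2.11, against 2.24 to 2.26 on the other 3 arrays, a gap of 0.88 of the range. It was the only one of the 22 groups of 4 arrays tested (11 probe sets at GD9.0 and GD9.5) to stand out in this way, and chance singles out about 1 in 20.

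The second change differed from the first by the limma test of the difference for 6 genes. It was smaller for Neurog1 by -1.97, for Neurod1 by -1.08 and for Neurog2 by -0.88. It was larger for Nhlh2 by 1.99, for Neurod4 by 0.91 and for Atoh1 by 0.89. For Neurod1 the other probe set gave -0.03.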

How the results depend on the processing

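Counting each member in each contrast, the alternatives other than leaving out an array kept direction and side of the threshold for 255 values, lost the call for 13 and reversed 8. Leaving out 1 array at a time kept 262, lost 16 and reversed 2. Neurod1 and Nhlh2 kept every call. Neurod4 kept its calls in both intervals and over the day, and Neurog1 and Neurog2 theirs in the first interval and over the day.

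Centring on pan-neural genes gave all 8 of the first reversals: Atoh1 -0.32 (first interval) and -0.12 (day); Nhlh1 -0.19 (first), -0.48 (second), -0.67 (day) and -0.29 (difference between intervals); Neurog1 -0.25 and Neurog2 -0.42 (second). Members that rose in the second interval then numbered 3 in place of 6, 3 fell in that interval and 1 over the day. With all 12 arrays after log2 and quantile normalization, 3 rose in the second interval, and 1 in place of 3 was higher in the second interval than the first. Without 1 array, Atoh1 in the first interval ranged from -0.14 (without GD8.5 replicate 3) to 0.23, and the interval difference of Nhlh1 from -0.002 (without GD9.5 replicate 2) to 0.19.

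Same-numbered arrays of different stages correlated in their deviations at -0.059 to 0.122, others at -0.165 to 0.155. The deviations of the 2 GD8.5 arrays mirror each other, so few of these pairs are independent. Whether the numbers pair the samples cannot be decided from them. The replicate block left Neurog2 in the second interval at 0.33 (adjusted p = 0.0565) and lost Nhlh1 over the day. The filter on dim genes gave no value for Nhlh1. With the 99th percentile of vomeronasal and taste receptor genes (2.73) as background, the bounds over the day were 7.21-fold for Neurod1, 6.96-fold for Nhlh2, 2.68-fold for Neurod4, 4.75-fold for Neurog1 and 1.96-fold for Neurog2. Both early stages of Nhlh2 and Neurod4, and every stage of Atoh1 and Nhlh1, lay under it, so changes between those stages have no fold there. In the first interval the bounds were 3.37-fold for Neurog1, 2.47-fold for Neurod1 and 1.56-fold for Neurog2. All 7 members' GD8.5 means lay under this level.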
